A study of Hydra viridissima with 2 samples.

Results

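In the green hydra, Hydra viridissima, 460 loci with transcription start site tags had more tags in symbiotic than in aposymbiotic animals, out of 5263 loci with enough tags to be compared. The green hydra is a freshwater polyp that normally carries green algae inside the epithelial cells lining its gut, and aposymbiotic animals lack them. Both libraries came from whole animals of clone 2, 1 library from green/symbiotic animals and 1 from aposymbiotic animals. Per the labels' protocols, some 200 large polyps went into each RNA pool. They lived at 24 °C, received brine shrimp 3 to 4 times a week and were collected 2 to 3 days after a meal, and the RNA integrity number was 10. The labels do not say how the aposymbiotic animals lost their algae.

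The loci were chosen by their tags. Positions of both libraries were pooled, joined on each strand where at most 20 bases lay between them, and kept as clusters where they held at least 5 pooled tags. Clusters of 1 strand at most 1000 bases apart were joined into 17517 loci, of which 5263 held at least 50 pooled tags. Tags per 1000000 tags of the library (CPM) then gave each locus a ratio, (symbiotic CPM + 1) over (aposymbiotic CPM + 1). The 460 loci at a ratio of 1.5 or more, 8.74% of those compared, are the members described here. Since this ratio chose them, levels and folds are given as a description. With 1 library per group there is no replicate check, the libraries are compared and not the conditions, and no test was made.

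CAGE (cap analysis of gene expression) reads the first base of capped RNA, so that a pile of tags marks where transcripts begin. Animal promoters can start transcription at nearly 1 base, which gives a sharp cluster, or over a wide stretch, which gives a broad one. Tags also occur along the body of a transcript, where they form weaker clusters that are not promoters. The files list positions without gene names, so no locus is named by a gene and the labelled tissue was not checked against marker genes. In whole animals, fewer cells of a type and less RNA per cell cannot be told apart.

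The symbiotic library held 3926689 tags and the aposymbiotic library 2138180, a depth ratio of 1.84. Each tag thus stood for 0.255 CPM in the symbiotic and 0.468 CPM in the aposymbiotic library, so that a count of 0 allows up to 0.764 CPM in the symbiotic and 1.40 CPM in the aposymbiotic library (3 tags). The members together held 55077 symbiotic and 16877 aposymbiotic tags, which was 1.40% of the symbiotic and 0.789% of the aposymbiotic library.

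The members were mostly weak loci with modest differences. Their levels ran from 9.68 to 1247 CPM in the symbiotic library, with a median of 15.8 CPM, against a median of 8.42 CPM in the aposymbiotic library. Over all 5263 loci compared, members included, the medians were 18.6 CPM symbiotic and 18.7 CPM aposymbiotic. The median fold of the members, as a ratio of CPM without the added 1, was 1.79. A ratio between 1.5 and 2 was found in 361 members, 99 reached 2 (1.88% of all loci compared) and 4 reached 4 (0.076%). In the other direction, 480 loci (9.12%) were lower in the symbiotic library by the ratio of 1.5, 111 (2.11%) by the ratio of 2 and 8 (0.152%) by the ratio of 4. The balance of higher and lower loci changed with the processing. With the symbiotic library thinned to the aposymbiotic total in 1 random draw, 3729 loci held enough tags to be compared. Of these, 246 (6.60%) were higher and 370 lower. In another setting, distinct positions were counted in place of tags, after the same thinning and scaled to each library's number of positions. Of the 5263 loci, 413 were then higher and 326 lower. That setting changes the depth, the unit and the weight of the added 1 together. No member was without tags in the aposymbiotic library, and 1 had 3 tags or fewer there.

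**Figure D1:**
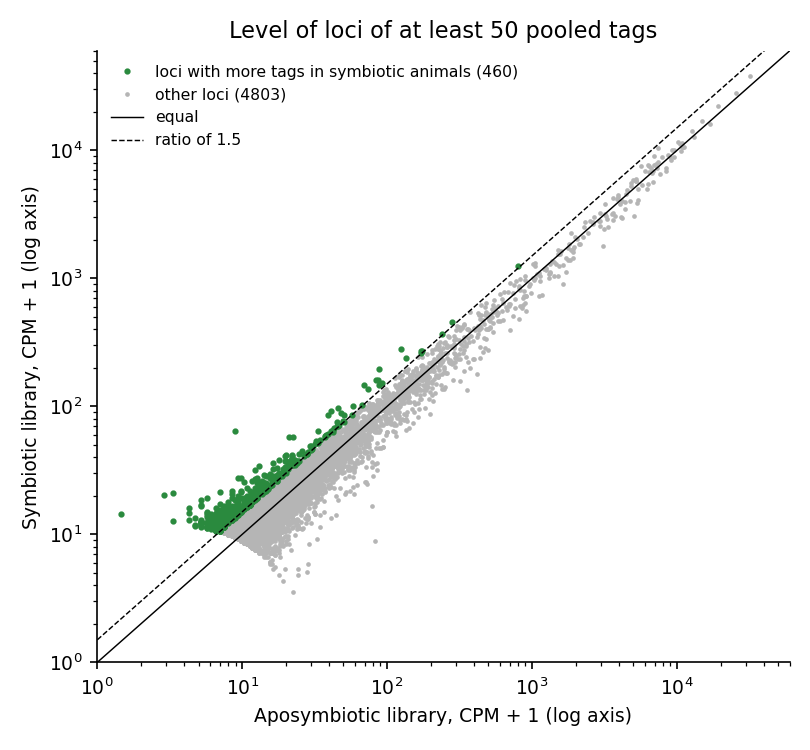
Level of each locus of at least 50 pooled tags in the symbiotic (vertical axis) and the aposymbiotic library (horizontal axis), both as CPM + 1 on log axes, with 1 point per locus. The 460 green points lie on or above the dashed line at the ratio of 1.5, most of them near it and at low levels, with 1 member above 1000 CPM in the symbiotic library.

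The share of loci that were members fell with the number of tags. It was 13.1% (304 of 2328) at 50 to 99 pooled tags, 7.15% (97 of 1357) at 100 to 199, 5% (42 of 840) at 200 to 499, 2.80% (9 of 321) at 500 to 999 and 1.92% (8 of 417) at 1000 or more. The share that was lower by the same ratio changed less over these classes, with 11.1% in the weakest and 6.24% in the strongest. Of the members under 100 tags, 175 of 304 (57.6%) had a fold whose 95% exact binomial interval lay above 1, as did 95 of 97 with 100 to 199 tags and all of those with at least 200. Over all loci compared, the interval lay above 1 in 648 (12.3%), of which 329 were members and 319 were not. For 39 members the interval lay above 1.5. These intervals cover counting error only, and the members were picked for a high ratio.

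**Figure D2:**
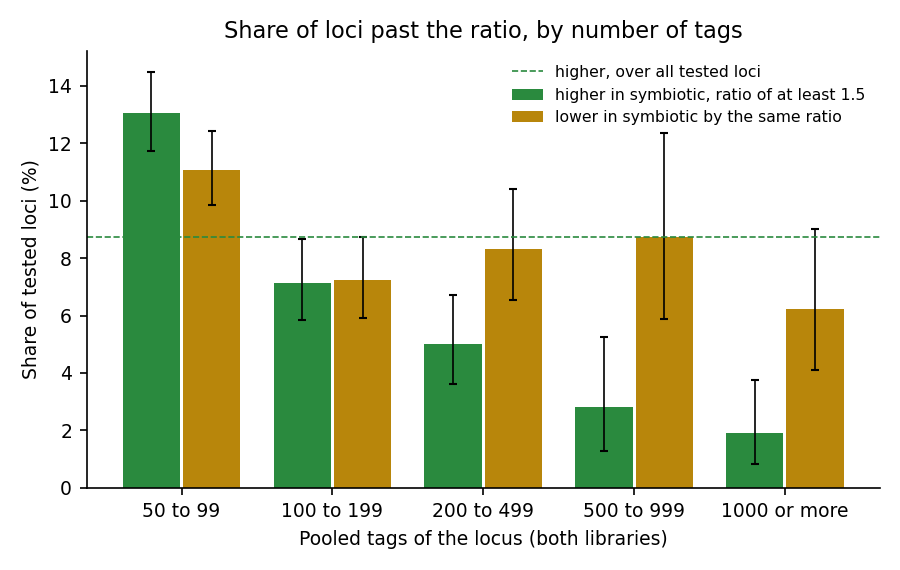
Share of loci past the ratio of 1.5 in each class of pooled tags, higher in the symbiotic library (green) and lower in it (brown), with 95% exact binomial intervals that treat loci as independent; the dashed line is the 8.74% over all loci. The green bars fall from 13.1% to 1.92% while the brown bars stay between 6.24% and 11.1%.

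The highest ratio in a locus with over 100 tags belonged to scaffold_9:18042604-18043067 on the minus strand, with 249 symbiotic and 17 aposymbiotic tags (63.4 and 7.95 CPM, 7.98-fold, 4.88 to 13.9). Its 5 clusters did not differ alike. The cluster at the 5′ end, from 18043058 to 18043067, had 23 symbiotic and 9 aposymbiotic tags, a fold of 1.39 (0.620 to 3.42) whose interval includes 1. The other 4 clusters together had 226 symbiotic and 8 aposymbiotic tags, 15.4-fold (7.67 to 36.1). The most used base of the symbiotic library, 18042730, had 56 symbiotic tags and 1 aposymbiotic tag, and base 18043066 had 13 symbiotic and 7 aposymbiotic tags. The first 20% of the locus from its 5′ end held 22.5% of its symbiotic and 70.6% of its aposymbiotic tags.

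The other 9 loci with the largest ratios had between 46 and 79 symbiotic tags and between 1 and 10 aposymbiotic tags. The largest of all was scaffold_7:6765849-6766222 on the plus strand, with 53 symbiotic tags and 1 aposymbiotic tag (28.9-fold, 4.96 to 1161). Its single aposymbiotic tag lay in the first of its 5 clusters. On scaffold_8:13842681-13843539, plus strand, 76 symbiotic and 4 aposymbiotic tags were spread over 7 clusters (10.3-fold, 3.88 to 38.9), the strongest with 20 symbiotic tags and no aposymbiotic one. On scaffold_9:6201010-6201577, plus strand, 79 symbiotic and 5 aposymbiotic tags lay in 6 clusters (8.6-fold, 3.54 to 27.2). In these 3 loci every cluster held symbiotic tags, and no cluster held more than 2 aposymbiotic ones.

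Folds of the remaining 6 ran from 3.81 to 5.01. They were scaffold_5:2702254-2703130 (minus strand, 46 symbiotic and 5 aposymbiotic tags) and scaffold_5:12788317-12789533 (minus, 69 and 9). Next came scaffold_7:6430740-6431162 (plus strand, 59 symbiotic and 7 aposymbiotic tags) and scaffold_10:15529409-15529752 (minus, 54 and 7). The last were scaffold_6:3345384-3346364 (minus strand, 72 symbiotic and 10 aposymbiotic tags) and scaffold_3:12861047-12861487 (plus, 63 and 9). All 6 intervals lay above 1, the lowest bound being 1.89. Each of these loci had 4 to 7 clusters, and in each the strongest cluster held from 28.0% to 52.9% of the pooled tags.

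Of the 6 members with the highest symbiotic level, 5 had folds between 1.52 and 1.65 and 1 had a fold of 2.28. The highest was scaffold_7:17627200-17627832 on the minus strand, a single unbroken cluster with 4898 symbiotic and 1722 aposymbiotic tags (1247 and 805 CPM, 1.55-fold, 1.47 to 1.64). Its tags were spread widely, with a width of 474 bases between the 10th and the 90th percentile of pooled tags and 4.97% of them at the most used base. The next, scaffold_3:8219679-8219932 on the minus strand, was also a single cluster, with 1798 symbiotic and 593 aposymbiotic tags (458 and 277 CPM, 1.65-fold, 1.5 to 1.81). Its most used base, 8219747, was the same in both libraries and had 365 symbiotic and 184 aposymbiotic tags. Without that base the ratio of the locus was 1.90, so the most used base differed less than the rest of the cluster.

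The third, scaffold_3:19335944-19337669 on the plus strand, had 1431 symbiotic and 511 aposymbiotic tags in 11 clusters (364 and 239 CPM, 1.52-fold, 1.38 to 1.69). Its 2 strongest upstream clusters, from 19336328 to 19336611 and from 19336721 to 19336906, were 2.17-fold (1.64 to 2.90) and 1.85-fold (1.57 to 2.17) higher in the symbiotic library. The cluster from 19337154 to 19337335 downstream of them had 402 symbiotic and 212 aposymbiotic tags, 1.03-fold (0.872 to 1.23). Further downstream, 5 small clusters held between 6 and 26 pooled tags each, with folds on both sides of 1 and intervals that include 1.

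The other strong members were scaffold_7:17631804-17632435 on the plus strand, with 1100 symbiotic and 263 aposymbiotic tags (280 and 123 CPM, 2.28-fold, 1.99 to 2.62), scaffold_9:16220745-16220877 on the plus strand, with 1066 and 366 tags (271 and 171 CPM, 1.59-fold, 1.41 to 1.79), and scaffold_1:13540176-13541431 on the minus strand, with 1065 and 373 tags (271 and 174 CPM, 1.55-fold, 1.38 to 1.75). The scaffold_9 locus was a compact single cluster, 77 bases wide by the percentiles. The scaffold_1 locus was broad, with a strongest cluster 385 bases wide by the percentiles. In full that cluster was 515 bases long, and it held 87.1% of the tags.

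**Figure D3:**
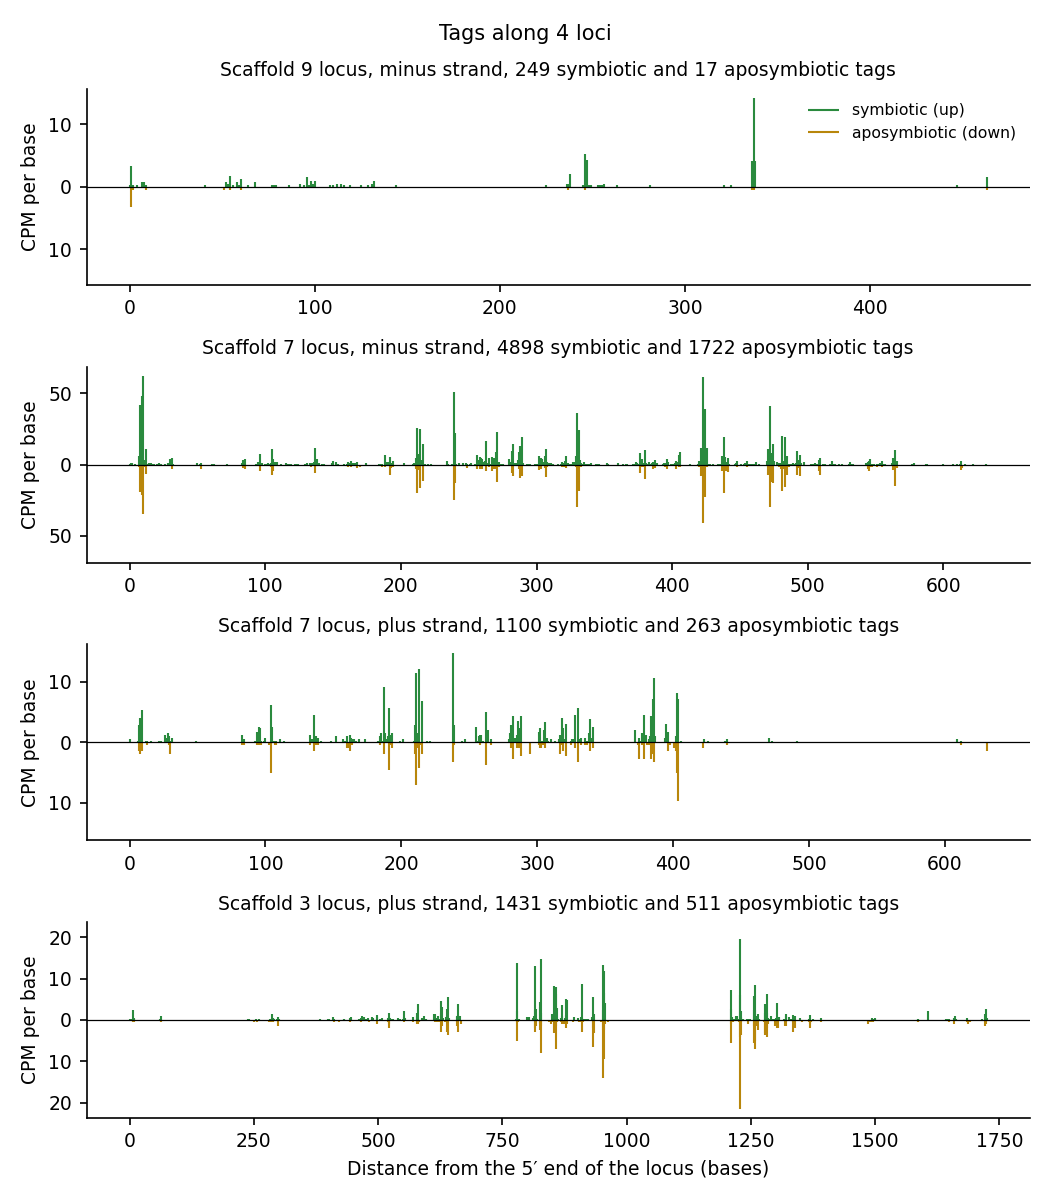
Tags at each base of 4 members, as CPM, with the symbiotic library upward and the aposymbiotic library downward, against the distance in bases from the 5′ end of the locus. In the top panel the cluster at the 5′ end is of similar height in both libraries while those further downstream are almost all symbiotic; in the bottom panel the cluster beyond 1210 bases has nearly the same level in both libraries.

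In form the members were close to the other loci below 200 tags and differed more above. The median member spanned 678 bases with 5 clusters, and its strongest cluster held 39.5% of the pooled tags and was 36.5 bases wide, against 765 bases, 6 clusters, 40.9% and 44 bases over all loci compared. Over all loci compared, the medians of span and width were larger in each class with more tags. Within the class of 50 to 99 tags, the medians of members were 566.5 bases of span and 31 bases of width, against 569.5 and 30 bases over all loci of that class. At 100 to 199 tags they were 809 and 42 bases, against 771 and 43 bases. At 200 to 499 tags the 42 members were somewhat longer and wider, with 1082.5 and 80.5 bases, against 963.5 and 70 bases. The 9 members of 500 to 999 tags were shorter, with medians of 693 bases of span and 4 clusters, against 1071 bases and 7 clusters, and of similar width (102 against 104 bases). Their strongest cluster held a median of 70.9% of the tags, against 49.3%. The 8 members of 1000 tags or more were also shorter but wider, with 944.5 and 223 bases, against 1400 and 138 bases, and their strongest cluster held 88.5%, against 67.6%.

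**Figure D4:**
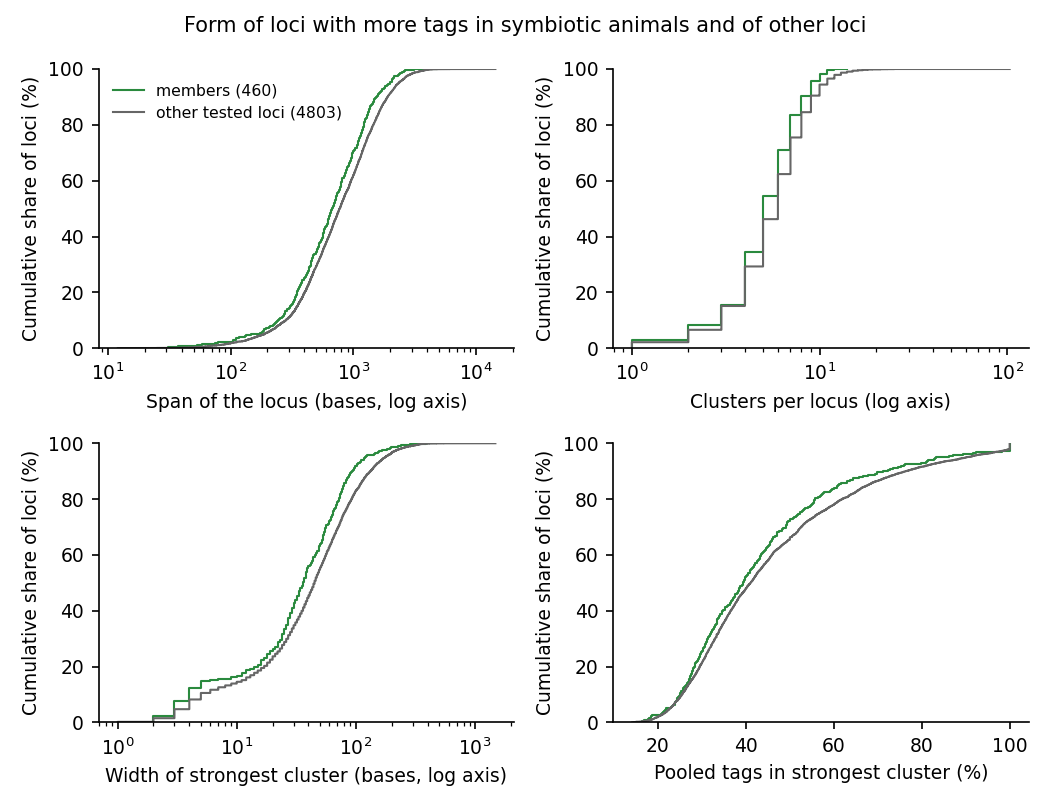
Cumulative share of loci by span, number of clusters, width of the strongest cluster (10th to 90th percentile of pooled tags) and share of pooled tags in the strongest cluster, for the 460 members (green) and the 4803 other loci compared (grey). The green curves lie slightly to the left, with medians of 678 bases against 776 bases for span and 36.5 bases against 45 bases for width.

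Forms varied widely among the members. A single cluster made up 13 members, 2 or 3 clusters 57, 4 to 9 clusters 369 and at least 10 clusters 21. Loci of a single cluster were 2.83% of the members, against 2.19% of all loci compared, and the folds of these members ran from 1.55 to 3.34. Members of at least 10 clusters were the strongest by number of tags, with a median of 193, and had folds of 1.52 to 2.84. The strongest cluster was sharp, 10 bases or less, in 75 members (16.3%, against 14.7% of all loci), and these had a median of 71 pooled tags. It was over 100 bases wide in 39 members (8.48%, against 16.2% of all loci), with a median of 270 tags. These shares are not matched for tags: 66.1% of members had under 100 pooled tags, against 44.2% of all loci, and width was larger in classes with more tags.

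The sharpest strong members, among those of at least 200 pooled tags, were the scaffold_9 locus at 18042604, whose strongest cluster was 3 bases wide, and scaffold_4:5792486-5794294 on the minus strand, also 3 bases wide. This scaffold_4 locus had 224 symbiotic and 43 aposymbiotic tags in 12 clusters (2.84-fold, 2.04 to 4.03), and its sharp cluster held 16.9% of the pooled tags. In each of its 6 clusters with at least 20 tags the symbiotic level was higher. The third was scaffold_1:35518890-35520769 on the plus strand, 11 bases wide, with 227 symbiotic and 78 aposymbiotic tags (1.58-fold, 1.22 to 2.08).

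The longest members were dispersed. On scaffold_13:1668932-1673717, minus strand, 47 symbiotic and 14 aposymbiotic tags lay in 10 clusters of at most 10 pooled tags each (1.83-fold, 0.989 to 3.6). On scaffold_1:29376600-29379713, minus strand, 131 symbiotic and 26 aposymbiotic tags lay in 8 clusters (2.74-fold, 1.79 to 4.36). On scaffold_2:22006123-22008866, plus strand, 274 symbiotic and 96 aposymbiotic tags lay in 14 clusters (1.55-fold, 1.23 to 1.98). In these long loci the pooled tags show no dominant start, and the strongest cluster held from 16.4% to 31.2% of them.

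The difference was often found beyond the most used base and the strongest cluster, but not in every member. With the most used base left out of each locus, 368 of the 460 members still had a ratio of at least 1.5, against 478 of all 5263 loci (9.08%). Of the 425 members with at least 20 pooled tags outside the strongest cluster, 415 had a higher symbiotic level there as well, and 276 had a ratio of at least 1.5 there, against 2401 and 513 of 4951 loci in all. Of 192 members with several clusters of at least 20 tags, 154 had all of them higher in the symbiotic library, against 592 of 3134 loci in all (18.9%). The rule used the same tags, so these counts describe the loci and support nothing further. With the symbiotic library thinned to the aposymbiotic total, the members held 30050 symbiotic and 16877 aposymbiotic tags at 12809 symbiotic and 8095 aposymbiotic positions, ratios of 1.78 for tags and 1.58 for positions.

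The rule did not use where along a locus the tags lay. In the 423 members with at least 3 clusters, the first 20% of the span from the 5′ end held on average 23.0% of symbiotic and 21.4% of aposymbiotic tags, and the last 20% held 25.5% and 28.7%. Over all 4911 such loci the values were 24.6% and 22.7% at the 5′ end and 22.4% and 25.2% at the 3′ end. In these averages the symbiotic share was higher at the 5′ end and lower at the 3′ end, in members and in all loci alike. By medians over all members, those with fewer clusters included, the classes of tags did not all share that order. In the last 20% of the span, the medians of members were 21.8% of symbiotic and 25% of aposymbiotic tags at 50 to 99 tags, 20% in each library at 100 to 199, 16.8% and 22.6% at 200 to 499, and 17.7% and 26.0% at 500 to 999. In the 8 members of 1000 tags or more the symbiotic share was the higher one, with 11.9% and 8.55%. Over all loci of that class the medians were 4.50% and 6.12%. In the weaker classes, all loci had 21.7% of symbiotic and 25% of aposymbiotic tags there at 50 to 99 tags. The values were 17.0% and 20.5% at 100 to 199 tags, 13.2% and 16.7% at 200 to 499, and 9.54% and 13.6% at 500 to 999. Over all loci the symbiotic share was thus the lower one in every class. In the first 20%, medians of members were 21.8% of symbiotic and 20% of aposymbiotic tags in the weakest class, and 15.6% and 15.4% at 100 to 199 tags. They were 13.9% and 14.0% at 200 to 499 tags, 5.37% and 10.2% at 500 to 999, and 8.20% and 8.02% at 1000 or more. Over all loci, the first 20% held 22.1% and 20% in the weakest class, and 18.8% and 16.4% at 100 to 199 tags. For the stronger classes these medians were 14.1% and 13.1%, 9.46% and 9.48%, and 7.44% and 7.13%.

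The most used base was the same in both libraries in 130 members (28.3%, interval 24.2 to 32.6), against 39.8% of all loci. By number of tags, it was 23.0% in members and 27.0% in all loci at 50 to 99 tags, 29.9% and 37.7% at 100 to 199 tags, and 50% and 51.4% at 200 to 499 tags. It was 66.7% in the 9 members and 59.8% in all loci at 500 to 999 tags, and 4 of 8 members and 79.6% of all loci at 1000 tags or more. At a given pooled count the rule leaves members fewer aposymbiotic tags, so these classes do not match the tags of each library. Among loci lower by the same ratio, the shares were 28.7% at 50 to 99 tags, 48.0% at 100 to 199 and 60% at 200 to 499. At 500 to 999 tags their share was 53.6%, and at 1000 or more 84.6%. In the 55 members with at least 50 tags in each library, 28 kept the same base (50.9%, 37.1 to 64.6), against 1212 of 2182 loci (55.5%). In 20 of the 55 the bases lay over 20 bases apart, 36.4%, against 35.4% of the 2182. For these 55 members, the interval includes the share over all loci.

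Members were scattered over the genome. They occurred on 17 of the 18 scaffolds with the lowest numbers, with between 4.55% and 16.1% of the loci compared on each, and every interval included the 8.74% of the whole. On scaffold_18 there was no member among 18 loci, with an exact interval that reaches 18.5%. Of the 65 loci on scaffolds numbered above 18, a division chosen after the values were seen, 14 were members (21.5%, interval 12.3 to 33.5). They lay on 11 of the 30 such scaffolds with loci compared, and the median log2 ratio of all 65 loci was 0.30. The strongest, also picked after their values were seen, were scaffold_24:255815-256435, minus strand, with 622 symbiotic and 184 aposymbiotic tags (1.84-fold, 1.56 to 2.18), and scaffold_38:127219-127911, minus strand, with 577 and 187 tags (1.68-fold, 1.42 to 1.99). Scaffold_59 held a pair, with 49 symbiotic and 8 aposymbiotic tags from 45681 to 45796 and 42 and 12 tags from 51836 to 52946.

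**Figure D5:**
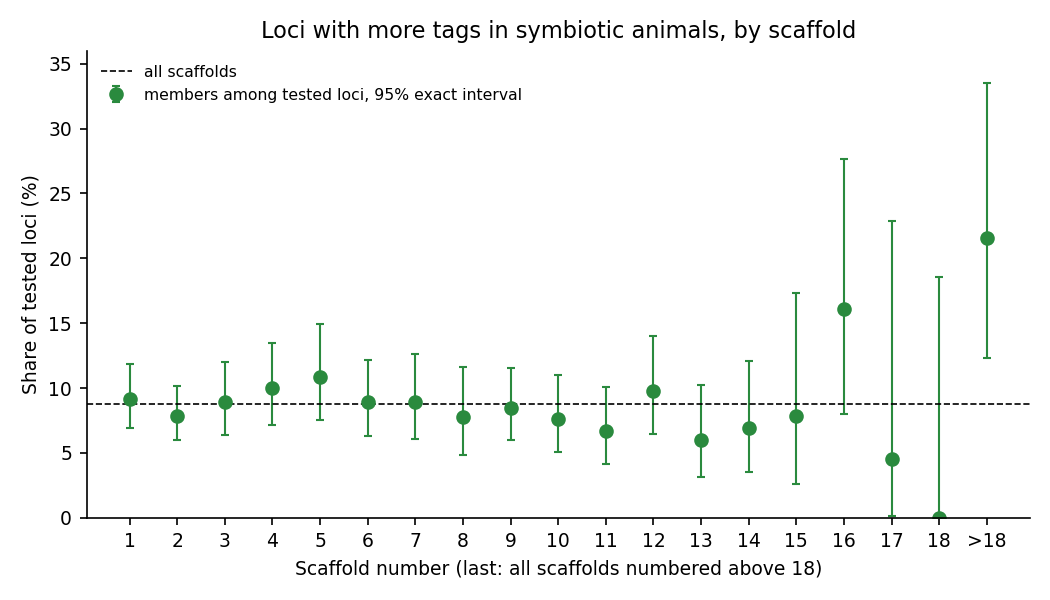
Share of the loci compared that were members on each scaffold, with 95% exact binomial intervals that treat loci as independent; the last point pools all scaffolds numbered above 18, and the dashed line is the 8.74% over all. Points of scaffolds 1 to 18 lie at 16.1% or below with intervals that include the line, and the pooled small scaffolds lie at 21.5%.

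Within 20000 bases, neighbours of members were members about as often as any locus. Of 502 loci within 20000 bases of a member, each counted once per member, 9.96% were members, against 8.74% of all loci compared. Within 5000 bases it was 16 of 130 (12.3%), with 10 of 95 on the same strand and 6 of 35 on the opposite strand. Within 100000 bases it was 8.26%. On the same strand within 20000 bases the share was 9.12% and on the opposite strand 11.3%. The locus nearest to a member, where one lay within 20000 bases (300 members), had a median log2 ratio of 0.09 (interval 0.01 to 0.15). The median was 0.00 for the loci nearest to any of 3519 loci. For those nearest to loci lower by the same ratio (311), it was -0.11 (-0.18 to -0.03). By that distance 46 members (10%) had another member nearby, against 467 of all 5263 loci (8.87%). These members formed 20 pairs and 2 groups of 3, and 10 of the 20 pairs lay on 1 strand and 10 on opposite strands. A locus on the opposite strand within 1000 bases was found for 5 members (1.09%), against 2.36% of all loci.

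The strongest group of 3 lay on the plus strand of scaffold_9. Its first locus, 16212697-16214002, had 250 symbiotic and 69 aposymbiotic tags (1.97-fold, 1.51 to 2.61), with its strongest cluster at the 3′ end. After 5079 bases followed 16219082-16219223, a single cluster with 772 symbiotic and 187 aposymbiotic tags (2.25-fold, 1.91 to 2.65). The third, 1521 bases on, was the compact locus at 16220745 described above. The other group lay on scaffold_1, with 38485118-38485426 on the plus strand (59 symbiotic and 14 aposymbiotic tags, 2.29-fold, 1.27 to 4.45). It continued with 38504439-38504871 (178 and 63 tags, 1.54-fold, 1.15 to 2.08) and 38507285-38507449 (211 and 72 tags, 1.60-fold, 1.22 to 2.12) on the minus strand.

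The strongest pair was the 2 loci of scaffold_7 at 17627200 (minus) and 17631804 (plus), which point away from each other with 3971 bases between them. Each had the other as its closest match by tag profile. Read from the 5′ end, and over 633 bases, the log2 pooled tags of the pair correlated with a Pearson r of 0.60 at a shift of 1 base, where bases are not independent and no p is given. The closest match of the minus-strand locus among the other loci of at least 500 tags had an r of 0.39. An r of 0.60 alone does not mark the pair, since other members reached as much with several loci: the compact scaffold_9:16219082-16219223 had 0.61 with each of its 2 closest loci, and scaffold_24:255815-256435 had 0.67 and 0.66. Sequence was not used here, and how the authors placed reads that match more than 1 site is not given in the sources used here. Whether the pair shares reads was not tested.

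The members just inside the threshold were scaffold_6:15127367-15128366 (plus strand, 333 symbiotic and 120 aposymbiotic tags, ratio 1.502), scaffold_16:6827225-6827500 (minus, 115 and 41 tags, ratio 1.501) and scaffold_12:9432761-9433836 (plus, 137 and 49 tags, ratio 1.501). Just outside were scaffold_5:4661542-4661731, scaffold_15:5540407-5540860 and scaffold_18:481362-482525, each with 46 symbiotic and 16 aposymbiotic tags and a ratio of 1.499. A single aposymbiotic tag fewer would have made each of the last 3 a member.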

How the data were processed

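CAGE tags of 1 symbiotic and 1 aposymbiotic library were analysed. Per the labels' protocols, capped ends were decapped and joined to a biotinylated dinucleotide, whose trace in a read marks capped RNA. For every base and strand, the authors deposited the raw count of tags that start there, and in other files raw counts of their clusters; no value was normalized. Tools in the submitters' processing notes are fastp 1.1.0 and also STAR 2.7.11b. Build, settings, handling of duplicate reads and of reads with several sites were not given in the sources used here. Loci, ratios and forms were computed from the single-base counts with Python 3.11.15, numpy 2.4.6, pandas 2.3.3 and scipy 1.17.1, and figures with matplotlib 3.10.9. Positions are counted from 1. Where bases tied as most used, the lowest coordinate was taken. Folds have 95% exact binomial intervals on the tag counts and shares exact Clopper-Pearson intervals. Amplified reads are not independent molecules, so intervals and floors cover counting error only. Loci named were the 10 with the largest ratio, the 6 with the highest symbiotic level, 3 each by span, single cluster, sharpness and distance to the threshold, and the 3 largest groups. The members, lists and alternatives were chosen with earlier results of these data known. The joining steps were checked on a few made-up positions with known answers. The ratio was checked on simulated tag totals of loci, with a change larger than the fold of most members. Simulated tags were not passed through the joining steps. For 1 alternative, edgeR 4.0.16 (R 4.3.3) gave TMM factors. No genome was used, so sequences and gene positions are not reported.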

Additional observations from a re-analysis of the deposited data

How the results depend on the processing

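Of 56 values under alternatives, 32 stayed and 24 moved, where a count stayed if within 1.5 times the reported count and a median or share if inside the 95% interval of the reported value. The number of members was 156 of 2935 loci with a minimum of 100 tags and 3425 of 17517 loci with no minimum. Of the 5263 loci, 99 passed at a ratio of 2 and 257 where 5 CPM were added. After thinning the symbiotic library to the aposymbiotic total, 246 of 3729 loci passed (178 of the 460 overlapped one of these). All of these settings change what can pass. Under the other 9 settings the number of members lay between 365 (of 4386 loci) and 525 (of 5957 loci). Lower loci numbered 222 with a minimum of 100 tags, 2985 with no minimum, 111 at a ratio of 2, 322 with 5 CPM added and 370 after thinning. Distinct positions in place of tags were counted after thinning and scaled to each library's number of positions. With them, 413 loci passed and 251 of the 460 members were among them. TMM factors left 454. The share of members with another within 20000 bases was 7.05% from 100 tags, 6.06% at a ratio of 2 and 6.10% thinned. It was 3.48% within 5000 and 34.3% within 100000 bases. These shares depend on the number of members and on the distance, and no share over all loci stands beside them. Members of at least 100 tags had a median of 7 clusters, a span of 882.5 bases, a width of 54 bases, 34.5 CPM symbiotic, 14.3% of symbiotic tags in the first 20% of the span and the same most used base in 38.5%. Joining loci at 500 bases gave a span of 522 bases and 42.1% of tags in the strongest cluster, and joining at 2000 bases a span of 928.5 bases. A ratio of 2 gave 573 bases and 14.8 CPM. Thinning gave a width of 39.5 bases, 25.3 CPM and 21.5% in the first 20% of the span. Beyond what each setting changes by construction, the cause was not tested. No paired analysis was possible because the design has 1 library per condition, and no library could be left out. Among the members under 100 tags, the interval of the fold lay above 1 in 175 of 304. That interval uses the same counts that chose the members, so it is no separate check of them.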

Other observations

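Tag profiles of the 17 members with at least 500 pooled tags were set beside those of all 738 such loci, at shifts of up to 300 bases, after the match of the scaffold_7 pair had been seen. A second close match was found for scaffold_1:13540176-13541431 (minus), with the locus at 13527123-13528672 on the same strand (r = 0.68 over 1256 bases at a shift of 19 bases, against 0.34 for the next locus). That locus is not a member. It had 4523 symbiotic and 2652 aposymbiotic tags (0.929-fold, 0.885 to 0.975), whereas the member had 1065 and 373 tags (1.55-fold, 1.38 to 1.75). For the other 14 members the best match had an r between 0.34 and 0.67.

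All 460 members overlapped a cluster of the authors' symbiotic list, and 374 overlapped one of their aposymbiotic list, with strand left aside. Over all 5263 loci compared, 5259 (99.9%) overlapped a cluster of the symbiotic list and 5117 (97.2%) one of the aposymbiotic list. The 86 members that overlapped no cluster of the aposymbiotic list had 1 to 25 aposymbiotic tags, with a median of 12, and at most 130 pooled tags. Their median fold was 2.18, against 1.79 over all members. The rule picked loci with a low aposymbiotic level beside the symbiotic one, and the lists come from the same libraries. These overlaps and folds are thus a description and no separate evidence.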
